A study of Mus musculus with 123 samples.

Results

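The 9 genes described here encode the main protein components of the lipoproteins that hepatocytes secrete, the transfer protein that loads lipid onto apolipoprotein B, and an enzyme that matures high density lipoprotein (HDL). They are Apoa1, Apoa2, Apoa4, Apoa5, Apob, Apoc3, Apoe, Mttp and Lcat, taken by symbol from the 15398 genes of a liver RNA-seq table. All 9 were among the 14397 genes that reached 1 CPM (reads of a gene scaled to the total of its library) in at least 3 libraries and were tested.

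The mice ate 1 of 2 diets, high fat (HFD) or low fat (LFD), under a photoperiod labelled Equal, Long or Short light, and livers were taken at zeitgeber time (ZT) 0, 4, 8, 12, 16 or 20 h. These labels form 36 groups, 21 of 3 libraries and 15 of 4, with 61 HFD and 62 LFD libraries. Equal light had 40 libraries, Long light 41 and Short light 42, and each of the 6 combinations of diet and photoperiod, called arms here, had 20 or 21. The labels give no diet composition, hours of light, event that marks ZT0, strain, sex or age, and every group was on either diet, so that no untreated chow group is part of these comparisons. Replicates are separate samples by their labels alone, so a p-value here reflects only how these samples spread, which may in part be technical.

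Hepatocytes build very low density lipoprotein (VLDL) around 1 molecule of apolipoprotein B per particle, onto which the microsomal triglyceride transfer protein, encoded by Mttp, moves triglyceride during translation. The smaller apolipoproteins exchange between particles and steer their fate in plasma: ApoC-III slows and ApoA-V speeds triglyceride lipolysis, ApoE is a ligand for clearance receptors, and ApoA-I and ApoA-II form the protein scaffold of HDL. ApoA-IV is carried on chylomicrons and HDL and in mice is made by liver as well as intestine. LCAT esterifies cholesterol on HDL and is activated by ApoA-I.

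On GRCm38, 4 of the 9 genes lie side by side on chromosome 9: Apoa1 at 46228580-46230466 (plus strand), Apoc3 at 46232933-46235636 (minus), Apoa4 at 46240696-46243459 (plus) and Apoa5 at 46268633-46271919 (plus). Apoa2 lies on chromosome 1 at 171225054-171226379 (plus), Apob on chromosome 12 at 7977648-8016835 (plus), Apoe on chromosome 7 at 19696109-19699188 (minus), Mttp on chromosome 3 at 138089854-138144968 (minus) and Lcat on chromosome 8 at 105939551-105943382 (minus). All are protein-coding genes in GENCODE mouse release M21. Exons of Apoa4 overlap the opposite-strand gene models Gm10680 and Gm47528, those of Apoa5 overlap Gm47544, and those of Mttp overlap Gm43691 and Trmt10a. The libraries were stranded, but the sources used here do not state the strand setting of the authors' counting, so reads of these pairs may not be separated.

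Promoter stretches are shown for Apoa2, the gene with the lowest p for diet, and for Apoa5, Apob and Lcat, the 3 genes with the lowest p for a daily rhythm. Each is the exon-free stretch within the 250 bases before a RefSeq transcript start of GRCm38.p6, written 5′ to 3′ on the gene's strand: chr1:171224804-171225053 (plus) for Apoa2, chr9:46268383-46268632 (plus) for Apoa5, chr12:7977427-7977647 (plus) for Apob and chr8:105943403-105943589 (minus) for Lcat. Capitals mark matches to 6 motifs searched on both strands, which are the E-box CACGTG, the nuclear receptor site AGGTCA, an HNF4-type site CAAAGTCCA, the TATA box TATAAA, the D-box TTATGTAA and the CRE TGACGTCA.
Apoa2: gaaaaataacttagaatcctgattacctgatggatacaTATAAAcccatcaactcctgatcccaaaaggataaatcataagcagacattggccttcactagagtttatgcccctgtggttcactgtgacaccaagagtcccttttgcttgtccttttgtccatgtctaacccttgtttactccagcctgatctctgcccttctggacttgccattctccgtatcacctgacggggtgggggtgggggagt
Apoa5: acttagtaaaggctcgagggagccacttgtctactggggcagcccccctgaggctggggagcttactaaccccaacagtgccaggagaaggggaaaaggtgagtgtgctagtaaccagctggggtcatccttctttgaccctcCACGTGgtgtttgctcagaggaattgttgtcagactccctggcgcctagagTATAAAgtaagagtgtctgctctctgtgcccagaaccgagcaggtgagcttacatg
Apob: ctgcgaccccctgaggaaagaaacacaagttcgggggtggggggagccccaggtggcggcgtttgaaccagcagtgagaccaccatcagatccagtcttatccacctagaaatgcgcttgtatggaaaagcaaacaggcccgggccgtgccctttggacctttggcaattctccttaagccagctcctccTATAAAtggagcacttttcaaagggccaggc
Lcat: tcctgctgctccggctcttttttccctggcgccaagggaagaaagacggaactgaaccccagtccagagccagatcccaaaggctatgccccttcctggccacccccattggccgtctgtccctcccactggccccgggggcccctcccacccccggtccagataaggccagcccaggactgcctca

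The Apoa5 stretch holds CACGTG, the E-box bound by the circadian activators CLOCK and BMAL1 among many other factors, and, nearer to the RefSeq start, TATAAA at 51 to 56 bases before it. The Apob stretch holds TATAAA at 55 to 60 bases and that of Apoa2 at 207 to 212 bases before the RefSeq start. For Apob the RefSeq start lies 29 bases inside the gene as annotated by GENCODE. The printed stretch ends just before the GENCODE start, so TATAAA lies nearer to that start than these positions say. The Lcat stretch holds none of the 6, nor do those of Apoa1 and Apoe. The windows of Apoa4 and Mttp were wholly exonic and Apoc3 had no promoter entry, so these genes were not searched. No match overlapped another. Over the 250 bases before the start of all 32851 RefSeq promoters, CACGTG was present in 6.021%, AGGTCA in 14.024%, CAAAGTCCA in 0.384%, TATAAA in 12.368%, TTATGTAA in 0.819% and TGACGTCA in 1.546%. These shares are for 250 bases, and the stretches of Apob and Lcat are shorter. The matches describe letters and are no evidence of binding.

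All 9 genes were well measured in every library. Total recovered reads ran from 13.97 M to 39.09 M with a median of 24.06 M, and 1 read was worth 0.02661 to 0.07046 CPM, while the lowest value of any of these genes was 67.32 CPM, for Apoa4. Depth therefore did not limit these values, and the spread between libraries did. Of 12 hepatocyte markers, 11 were in the table, with a mean of 11.42 to 11.96 log2 CPM in every library, and Alb, the albumin gene, stood at a median of 16.19. Of 10 enterocyte markers, which matter because the intestine also makes ApoA-I, ApoA-IV, ApoB and MTTP, 4 were in the table: Fabp2, Cdhr5, Lgals4 and Slc5a1 had medians of 6.59, 5.86, 3.84 and 0.11 log2 CPM, and Vil1, Cdx1, Cdx2, Sis, Alpi and Krt20 were not analysed here. Skeletal muscle or pancreas acinar markers averaged above 4 log2 CPM in 19 libraries, 5 HFD and 14 LFD. Of 11 pancreas acinar markers, 10 passed as lower in HFD and 0 as higher, with a median log2 difference of -1.64 and summed levels of 18.06 to 567.4 CPM in HFD and 12.87 to 3885 CPM in LFD. Of 10 stellate cell markers, 4 passed as higher in HFD and 0 as lower, and 0 of 12 muscle markers passed in either direction. Over all tested genes, 12.9% passed as higher in HFD and 12.6% as lower. The part of these markers in the diet results was not tested beyond leaving out the 19 libraries.

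A pair of libraries stood farthest from the means of their groups over all tested genes, at root mean square distances of 0.75 (LFD Equal light ZT0, replicate 3) and 0.72 (HFD Equal light ZT20, replicate 1) on the log2 scale, against a median library at 0.40. Several results that rest on them are given with and without them. The LFD library was also one of the 19 marker-rich libraries, with pancreas acinar markers at a mean of 4.19 log2 CPM. In the HFD library, Apoe was at 11.77 log2 CPM where the other 3 libraries of the group were at 13.56 to 13.87, and Apoa5 was at 8.42 against 9.76 to 10.33. Its Apob and Mttp, the 2 longest transcripts of the 9, were instead the highest of the group, at 13.36 against 12.56 to 12.68 and at 9.26 against 8.73 to 8.89. In the LFD library, Apoa2 was at 11.01 log2 CPM against 12.03 and 12.05, and Apoa4 was at 9.69 against 6.92 and 8.64.

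These libraries also had 2 of the 3 highest values of a length score, the median deviation from the mean of each gene over genes with at least 6537 exon bases minus that over genes with at most 2489: 0.365 for the HFD library and 0.24 for the LFD library, with HFD Equal light ZT4 replicate 2 between them at 0.27 and a median library at -0.0011. The score ran from -0.18 to 0.365 in HFD and from -0.26 to 0.24 in LFD, with medians of -0.0031 and -0.00068. Within groups, over all libraries, it ran against Apoc3 (r = -0.75), Apoa2 (-0.67) and Apoe (-0.47) and with Apob (0.47), as a description. Apoc3, Apoa2 and Apoe, with Apoa1, Apoa4 and Lcat, are themselves among the short genes of the score, and Apob is among the long ones. The signs of these correlations therefore follow the way the score is built. The score and the gene values came from the same libraries, which differed in depth. Results were also fitted with the score as a covariate.

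Per kilobase of exon, Apoa2 was the most abundant of the 9 with a median of 8565 CPM per kb (3843 to 11650 over all libraries). It was followed by Apoe at a median of 5779 CPM per kb (1632 to 8266) and by Apoa1 at 5373 (2549 to 7791). Apoc3 stood at 1389 CPM per kb (790.8 to 1909), Apob at 468.1 (332.3 to 754.0) and Apoa5 at 401.5 (136.0 to 682.2). Lcat, Apoa4 and Mttp were lowest, at medians of 233.5, 109.6 and 71.21 CPM per kb. The ranges of neighbours in this order overlapped except between Apoa1 and Apoc3 and between Apoc3 and Apob, and every library had Apoa2 above Apoe. Apoe was above Apoa1 in 79 libraries and below it in the others, so their order varied from library to library.

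Apoa4 was the most variable of the 9. Its SD within groups was 0.76 on the log2 scale, higher than in 94.99% of the tested genes, while that of the other 8 ran from 0.18 (Apoc3) to 0.33 (Apoe). Apoa4 ranged from 6.07 to 9.69 log2 CPM, and its group means from 6.41 (LFD Short light ZT4) to 8.52 (LFD Long light ZT20). The 3 libraries of LFD Short light ZT4 lay close together at 6.37, 6.37 and 6.495 log2 CPM, whereas those of LFD Short light ZT0 lay at 6.36, 7.51 and 9.40.

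The first comparison asked how the diets differed over all photoperiods and times. Relative to LFD, HFD livers had higher Apoa2 and Apoe, by 12% each, and lower Mttp, by 7%. The other 6 genes did not pass the test, and no gene of the 9 differed by more than 22.6% in the fitted mean. With 3 of 9 genes called at an adjusted p under 0.05 (limma with Benjamini-Hochberg adjustment over all tested genes), against 25.5% of all tested genes, the share was near the background. The median absolute log2 difference was 0.105 for the 9 genes and 0.066 for all tested genes, as a description. Higher calls numbered 2 (12.9% of all genes were called higher) and lower calls 1 (12.6%).

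Apoa2, a structural apolipoprotein of HDL, had a lowest, median and highest value of 11.80, 12.23 and 12.61 log2 CPM in HFD and of 11.01, 12.08 and 12.51 in LFD. The diets overlapped over most of their range, but the HFD mean was higher in 17 of the 18 matched pairs of groups (same photoperiod and time). Its difference was 0.16 ± 0.036 (SE) on the log2 scale, with an adjusted p of 0.000423. In Long light at ZT0, for example, the 4 HFD libraries were at 12.17 to 12.52 log2 CPM and the 3 LFD libraries at 11.99 to 12.04, without overlap. All HFD libraries lay above all LFD libraries in 4 of the 18 pairs and below them in 0, and the libraries overlapped in the rest. Without the farthest libraries the difference was 0.15 (adjusted p = 0.000164), and with the length score as a covariate it was 0.14 (adjusted p = 3.86e-05).

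Apoe ran from 11.77 through a median of 13.68 to 14.11 log2 CPM in HFD and from 12.73 through 13.52 to 14.10 in LFD, so that both the lowest and the highest library were HFD. The HFD mean was higher in 15 of 18 matched pairs, and the difference was 0.165 ± 0.061 (SE), with an adjusted p of 0.0341. Without the farthest libraries it was 0.18 (adjusted p = 0.00399). The call was lost without the 19 marker-rich libraries (0.16, adjusted p = 0.103), without replicate 3 (adjusted p = 0.406) and without replicate 4 (adjusted p = 0.0747). Macrophages also make ApoE. Of 12 macrophage and Kupffer cell markers, 7 passed as higher in HFD and 0 as lower, against 12.9% and 12.6% of all tested genes. Their summed level ran from 367.1 through a median of 540.8 to 983.4 CPM in HFD and from 324.5 through 462.0 to 904.1 CPM in LFD, and their part in the Apoe difference was not tested. In whole liver, more cells of a type and more RNA per cell cannot be told apart.

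Mttp, the gene of the lipid transfer subunit, ran from 8.25 through a median of 8.73 to 9.26 log2 CPM in HFD and from 8.09 through 8.81 to 9.34 in LFD. The HFD mean was lower in 15 of 18 matched pairs, and the difference was -0.11 ± 0.039 (SE), with an adjusted p of 0.0321. It was -0.13 (adjusted p = 0.00739) without the farthest libraries and -0.15 (adjusted p = 0.00928) without the 19 marker-rich ones. The call was lost without replicate 1 (-0.072, adjusted p = 0.262), replicate 2 (-0.11, 0.0974) or replicate 4 (-0.11, 0.0646). Apob, which encodes the apolipoprotein that MTTP loads with lipid, differed by -0.01 ± 0.038 (SE, adjusted p = 0.865), with 9 of 18 pairs in each direction.

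Apoa4 had the largest diet estimate and the widest interval: 0.29 ± 0.136 (SE) on the log2 scale, 95% interval 0.02 to 0.56, adjusted p = 0.103. HFD libraries had a lowest, median and highest value of 6.27, 7.89 and 9.26 log2 CPM, and LFD libraries of 6.07, 7.48 and 9.69, the last being the far LFD Equal light ZT0 library. Without the farthest libraries the difference was 0.34 and passed (adjusted p = 0.0449). The largest estimate at a single time was at ZT4, where 11 HFD libraries ran from 6.27 through 7.597 to 8.13 log2 CPM and 10 LFD libraries from 6.07 through 6.65 to 7.57. That difference was 0.77 (95% interval 0.12 to 1.42) and did not pass (adjusted p = 0.227). The 4 measured enterocyte markers summed to 137.8 to 225.0 CPM in HFD and 117.3 to 254.0 CPM in LFD. Of these markers, 2 passed as higher and 1 as lower in HFD, against 12.9% and 12.6% of all tested genes. Their part in the Apoa4 values was not tested.

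Lcat was at a median of 8.32 log2 CPM in HFD and 8.25 in LFD. Its difference of 0.105 ± 0.045 (SE) had an adjusted p of 0.0755, and 0.0272 without the farthest libraries. For Apoa1, the LCAT activator, the medians were 12.65 and 12.73 log2 CPM, and its difference of -0.08 ± 0.044 (SE) had an adjusted p of 0.158 and of 0.0283 without replicate 3. Apoa5 differed by -0.04 (95% interval -0.16 to 0.07, adjusted p = 0.638) and Apoc3 by 0.01 (-0.05 to 0.08, adjusted p = 0.811), the latter by -0.0024 with the length score as a covariate. The 4 neighbours on chromosome 9 thus had estimates of both signs, and none of the 4 passed. The intervals of the 4 genes bound their diet differences, Apoa4 least tightly, and do not show that the diets were alike.

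**Figure D1:**
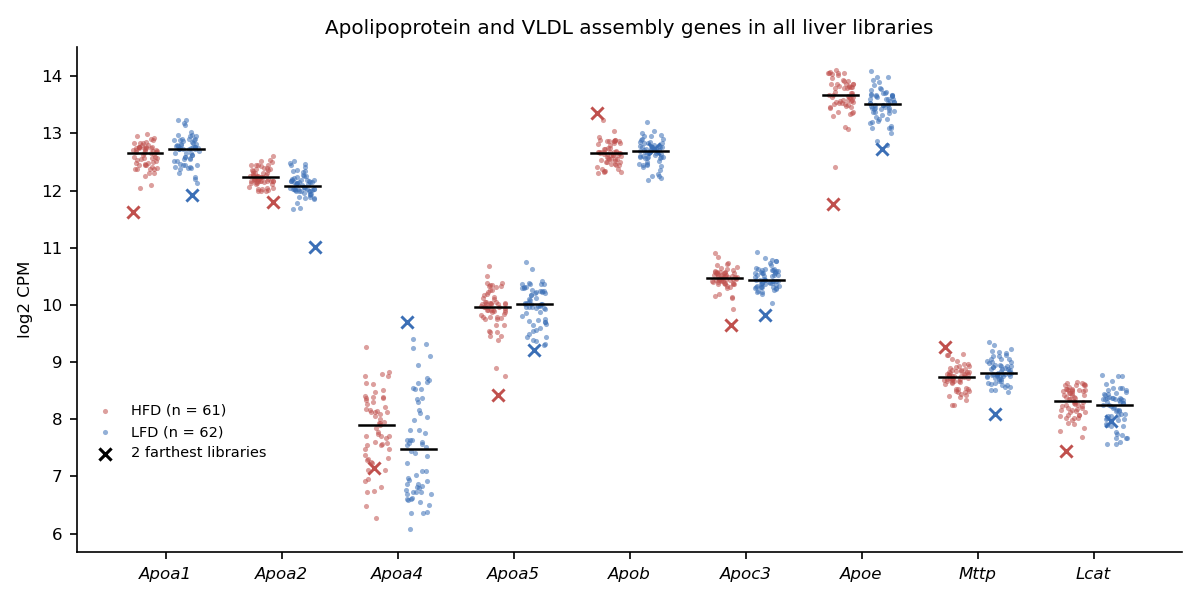
Each point is the log2 CPM of 1 gene in 1 library, HFD (61 libraries) on the left and LFD (62) on the right of each gene, with a bar at the median and crosses for the 2 farthest libraries. The diets overlapped for all 9 genes, Apoa4 was spread most widely, and a cross was the lowest value in both diets for Apoa1, Apoa2, Apoa5, Apoc3 and Apoe.

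The diet difference was then read within each photoperiod, where 0 of the 9 genes passed in Equal light (6.85% of all genes called), Long light (4.86%) or Short light (6.88%) in limma. At an unadjusted p under 0.05, 3, 2 and 2 genes did, against 20.1%, 17.8% and 22.7% of all genes. The count of 0 depended on the setting. Apoa2 passed in Equal light with limma-voom on recovered reads (adjusted p = 0.0477), with no variance trend (0.0455), with the library number (0.0247), with centring on the median gene (0.0308) and with the length score (0.00709). The length score also gave Apoa2 in Short light (0.16, adjusted p = 0.0238) and Lcat in Equal light (0.0393), and centring gave Lcat in Equal light (0.0305). The Apoa2 difference was 0.19, 0.15 and 0.13 on the log2 scale in Equal, Long and Short light, with adjusted p of 0.0537, 0.155 and 0.177. Lcat differed by 0.23 in Equal light (adjusted p = 0.0555), -0.02 in Long light (0.945) and 0.10 in Short light (0.476). Without the farthest libraries, both in Equal light, Lcat (0.27, adjusted p = 0.0147) and Apoe (0.30, adjusted p = 0.0272) passed there.

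The test of the diet by photoperiod interaction called 0 of the 9 genes (0.0% of all genes), with 0 at an unadjusted p under 0.05, 0 in limma-voom and a lowest adjusted p of 0.999. The diet by time interaction likewise called 0 genes (0.0% of all genes), with 0 at an unadjusted p under 0.05, 0 in limma-voom and a lowest adjusted p of 1.0. At single times, 0 of the 9 passed at ZT0 (0.472% of all genes), ZT4 (2.36%), ZT8 (0.181%), ZT12 (0.00695%), ZT16 (2.5%) or ZT20 (0.597%). At an unadjusted p under 0.05 the counts were 2, 2, 0, 0, 2 and 1 in that order, against 12.5%, 15.3%, 10.3%, 7.94%, 15.1% and 13.1% of all genes, and limma-voom called 0. A photoperiod or time at which the diet difference of these genes was larger was therefore not detectable here.

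**Figure D2:**
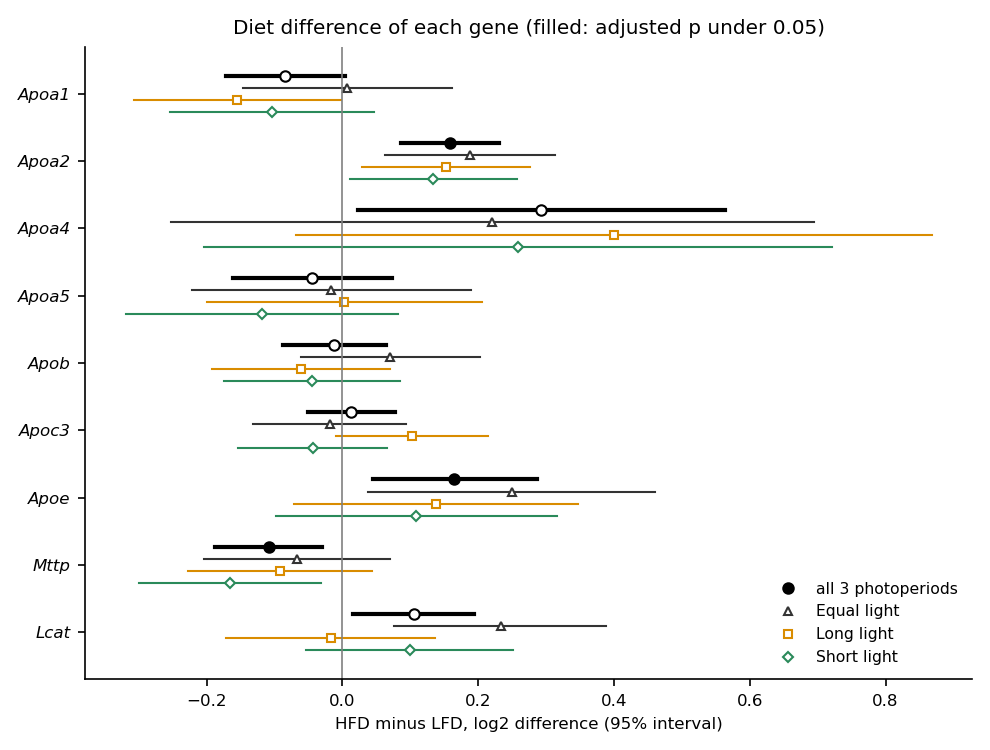
Horizontal axis, fitted HFD minus LFD difference in log2 CPM with its 95% interval, for each gene over all photoperiods (black circles, thick lines) and within Equal, Long and Short light. Filled symbols passed at an adjusted p under 0.05: Apoa2, Apoe and Mttp over all photoperiods, and none within a photoperiod.

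Levels were next compared between photoperiods over the daily cycle, and 0 of the 9 genes passed in any of the 9 contrasts between Equal, Long and Short light, within or over diets. The share of all genes called was at most 0.0278% (Long vs Equal light, both diets), and limma-voom called 0 of the 9 too. At an unadjusted p under 0.05, 6 of the 9 passed for Long vs Equal light (14.6% of all genes) and 5 for Short vs Equal light (16.6%) over both diets, and 0 for Long vs Short light (2.79%). Apoa1 came closest, with 12.38 to 13.23 log2 CPM (median 12.74) in Long light and 11.62 to 12.96 (median 12.61) in Equal light. Its difference was 0.19 ± 0.055 (SE; adjusted p = 0.127), and 0.15 (adjusted p = 0.256) without the farthest libraries. Both of those libraries were in Equal light, where the length score averaged 0.026 ± 0.0895 (SD, n = 40) against -0.016 ± 0.081 (SD, n = 41) in Long and -0.022 ± 0.088 (SD, n = 42) in Short light. With the score as a covariate the Apoa1 difference was 0.145 (adjusted p = 0.43).

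The second axis of the design was time of day, modelled as a 24 h cosine per arm. Over the 6 arms together, 5 of the 9 genes had a daily rhythm at an adjusted p under 0.05, against 50.5% of all tested genes, so the share was near the background. The 5 were Lcat, Apoa5, Apob, Apoc3 and Apoa4, and all peaked at fitted times between ZT13.6 and ZT20.6. Amplitudes (from the midline of the fitted curve to its peak) were small, from 0.09 to 0.27 on the log2 scale, with a median of 0.089 over the 9 genes and 0.090 over all tested genes. Mttp, Apoa2, Apoa1 and Apoe did not pass (adjusted p = 0.0761, 0.0941, 0.337 and 0.642). With the length score as a covariate, Apoa2 (0.00506) and Mttp (0.0233) did.

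Lcat was lowest at ZT4, with 7.56 to 8.43 log2 CPM (median 8.05) over 21 libraries, and highest at ZT20, with 7.45 to 8.76 (median 8.49) over 20. The lowest ZT20 value belonged to the far HFD library. Its amplitude was 0.15 ± 0.031 (SE), peak ZT18.2 ± 0.8 h (SE), peak-to-trough ratio 1.23, adjusted p = 0.000169. Without replicate 3 the adjusted p was 0.0672, and in the other alternatives the call was kept.

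Apoa5, the activator of triglyceride lipolysis, had medians of 9.82 log2 CPM at ZT0 (8.90 to 10.42), 9.80 at ZT4 (8.76 to 10.37) and 10.12 at ZT16 (9.32 to 10.75). Its amplitude was 0.19 ± 0.040 (SE), peak ZT13.8 ± 0.8 h, peak-to-trough ratio 1.3, adjusted p = 0.000262. Apoc3, the inhibitor of lipolysis and its neighbour on chromosome 9, peaked at a similar fitted time, ZT13.6 ± 1.0 h, with an amplitude of 0.09 ± 0.023 (adjusted p = 0.00258). Apoc3 had medians of 10.37 log2 CPM at ZT0 and 10.56 at ZT16. With the length score as a covariate, which itself had means of 0.04 at ZT0 and -0.04 at ZT12, Apoa5 kept its call (amplitude 0.14, adjusted p = 0.00757) and Apoc3 lost it (0.04, adjusted p = 0.0666). Apoc3 also lost it without replicate 3 (adjusted p = 0.0951).

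Apob, the structural protein of VLDL, peaked latest of the 5 at ZT20.6 ± 0.9 h, with an amplitude of 0.115 ± 0.026 (SE), a peak-to-trough ratio of 1.17 and an adjusted p of 0.000585. At ZT20 it ran from 12.56 through 12.76 to 13.36 log2 CPM, and at ZT8 from 12.22 through 12.58 to 12.83, and the ranges overlapped. Without the farthest libraries the amplitude was 0.10 (adjusted p = 0.00148), and without replicate 1 the call was lost (adjusted p = 0.0720). Apoa4 had the largest amplitude, 0.27 ± 0.098 (SE), peak ZT16.9 ± 1.4 h, and an adjusted p of 0.0489 that lay close to the threshold. At ZT4 it was lowest, at 6.07 to 8.13 log2 CPM (median 7.24), against 6.73 to 9.10 (median 7.82) at ZT16. Its adjusted p was 0.398 without replicate 2, 0.139 without replicate 4, 0.123 without replicate 1, 0.0592 with the length score, 0.0512 with no variance trend, 0.0508 with no filter and 0.0505 with the library number.

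**Figure D3:**
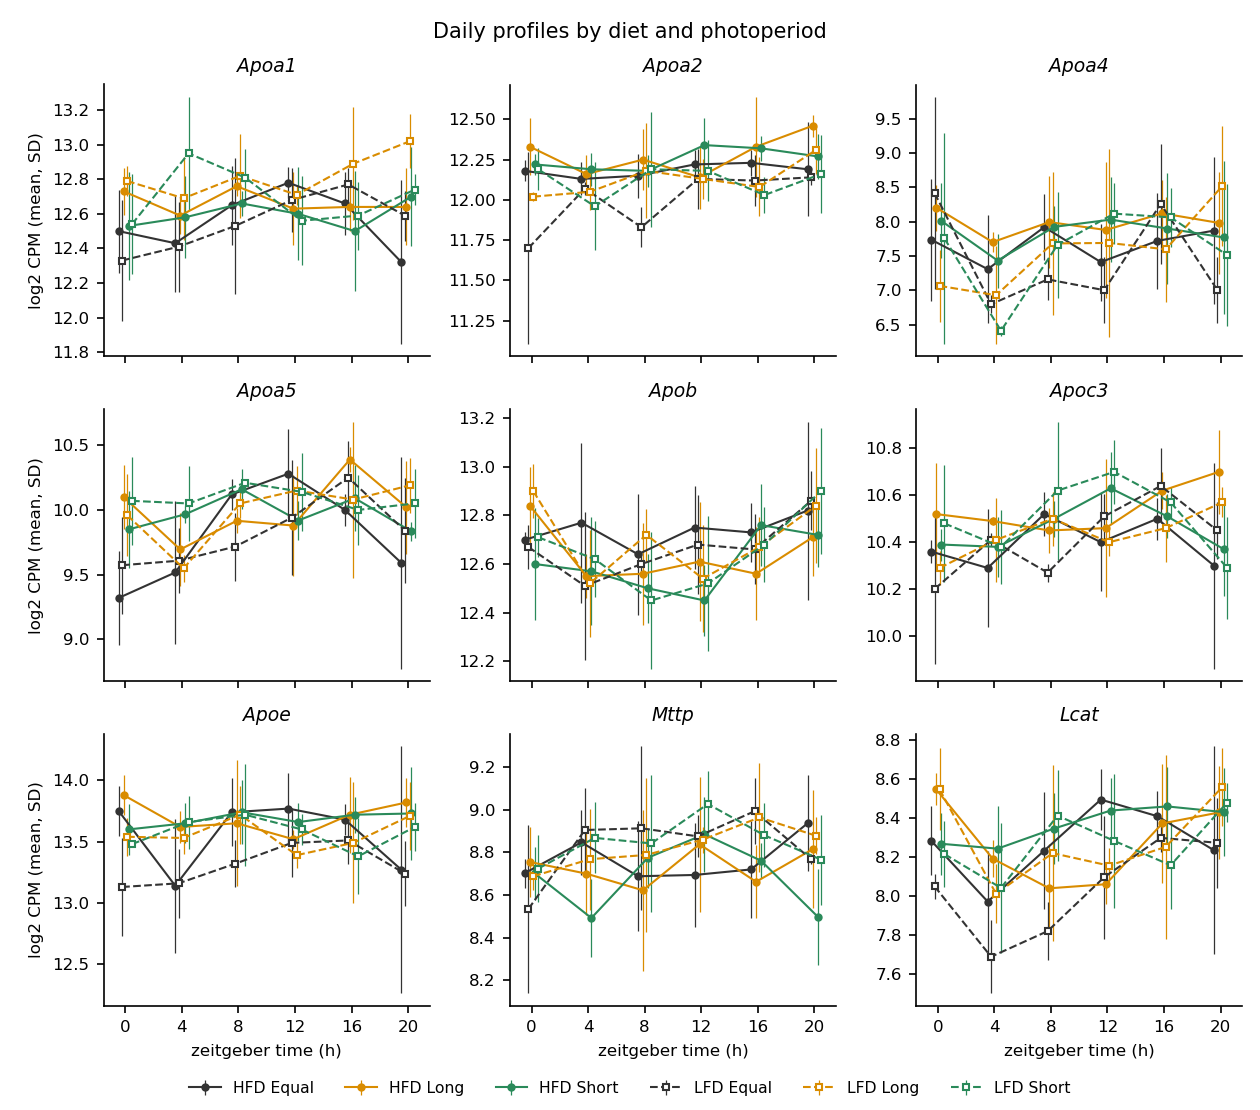
Vertical axes, mean log2 CPM of each group of 3 or 4 libraries with its SD, horizontal axes, zeitgeber time in hours, 1 panel per gene. Filled symbols and full lines are HFD, open symbols and broken lines LFD, with Equal light in black, Long in orange and Short in green. Lcat fell to its lowest group mean, 7.69 in LFD Equal light, at ZT4, and the SD bars of most neighbouring times overlapped.

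In single arms, 6 rhythms were called over the 9 genes and 6 arms. HFD Equal light had 1, Apoa5 (16.5% of all genes called), HFD Long light 1, Lcat (21.8%), LFD Equal light 2, Apoa5 and Lcat (20.9%), and LFD Short light 2, Apob and Apoc3 (27.1%). HFD Short light (14.1%) and LFD Long light (23.6%) had 0 in limma and 0 in limma-voom, and 0 and 1 at an unadjusted p under 0.05. In HFD Equal light the 3 Apoa5 libraries of ZT0 were at 8.90, 9.53 and 9.53 log2 CPM and those of ZT12 at 10.05, 10.11 and 10.68, without overlap. Over arms of 1 diet, the Apoa4 amplitude was 0.43 ± 0.137 (SE; adjusted p = 0.0321) in LFD and 0.12 ± 0.140 (adjusted p = 0.813) in HFD. The test of the difference in rhythm between diets called 0 of the 9 genes (0.00695% of all genes), with 0 at an unadjusted p under 0.05, 0 in limma-voom and every adjusted p at 1.0.

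Between photoperiods the rhythm differed for 3 of the 9 genes, Apoa5, Lcat and Apoa1, against 49.1% of all tested genes. The Apoa5 amplitude over both diets was 0.37 ± 0.070 (SE) in Equal light with a peak at ZT13.2, 0.22 ± 0.069 in Long light with a peak at ZT16.6, and 0.10 ± 0.068 in Short light, where no rhythm passed (adjusted p = 0.483). The adjusted p of the difference was 0.00664. In libraries of Equal light at ZT0, Apoa5 was at 8.90 to 9.53 in HFD and 9.21 to 9.96 in LFD. Short light libraries at ZT0 were at 9.55 to 10.17 in HFD and 9.74 to 10.42 in LFD. The value of 9.21 belonged to the far LFD library. In the far HFD library, of Equal light ZT20, Apoa5 was at 8.42, and in HFD Equal light ZT4 replicate 2 it was at 8.76, each the lowest of its group. These libraries had the highest length scores, and the Apoa5 amplitudes by photoperiod are not given without them.

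Lcat had amplitudes of 0.24 ± 0.055 (SE) in Equal light and 0.23 ± 0.055 in Long light, with fitted peaks at ZT16.4 ± 0.9 h and ZT21.1 ± 0.9 h, and of 0.08 ± 0.054 in Short light (adjusted p = 0.41). The adjusted p of the difference was 0.00887. In the far HFD Equal light ZT20 library, Lcat was at 7.45 log2 CPM against 8.38 to 8.6 in the rest of its group. The Equal light peak without that library is not given here. In single arms the fitted Equal light peaks were ZT14.7 ± 1.5 h (SE) in HFD, where no rhythm passed, and ZT17.5 ± 1.0 h in LFD. The Long light peaks were ZT21.4 ± 1.2 h in HFD and ZT20.6 ± 1.4 h in LFD, where no rhythm passed. At ZT12 the HFD Equal light libraries of Lcat were at 8.32, 8.52 and 8.63 log2 CPM and the HFD Long light libraries at 7.99, 8.02 and 8.18, without overlap. Because ZT0 is not defined in the labels, a shift in peak between photoperiods is a shift relative to that unstated reference. Apoa1 had an amplitude of 0.19 ± 0.053 (SE) in Equal light with a peak at ZT13.0 (adjusted p = 0.0117) and of 0.04 ± 0.052 and 0.07 ± 0.052 in Long and Short light, and its difference had an adjusted p of 0.0459.

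These differences between photoperiods depended on the libraries and the model. With the 6 times as a factor in place of the cosine, 0 of the 9 genes passed (limma; lowest adjusted p 0.0734, for Lcat). Without replicate 3 the adjusted p was 0.102 for Apoa5 and 0.152 for Lcat, without replicate 2 it was 0.0396 and 0.0609, and Apoa1 lost its call without replicate 1, 2 or 3 (0.172, 0.144 and 0.25), without the farthest libraries (0.0641), without the marker-rich ones (0.0785) and with the library number (0.0551). Apoc3, at an adjusted p of 0.0685, passed without the farthest libraries (0.0122), with the length score (0.0291), with the library number (0.0482) and without replicate 3 (0.0218). Its rhythm passed in Short light (amplitude 0.15 ± 0.039, peak ZT11.4) and Equal light (0.12 ± 0.039, peak ZT14.1) and not in Long light (0.07 ± 0.039, adjusted p = 0.3).

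**Figure D4:**
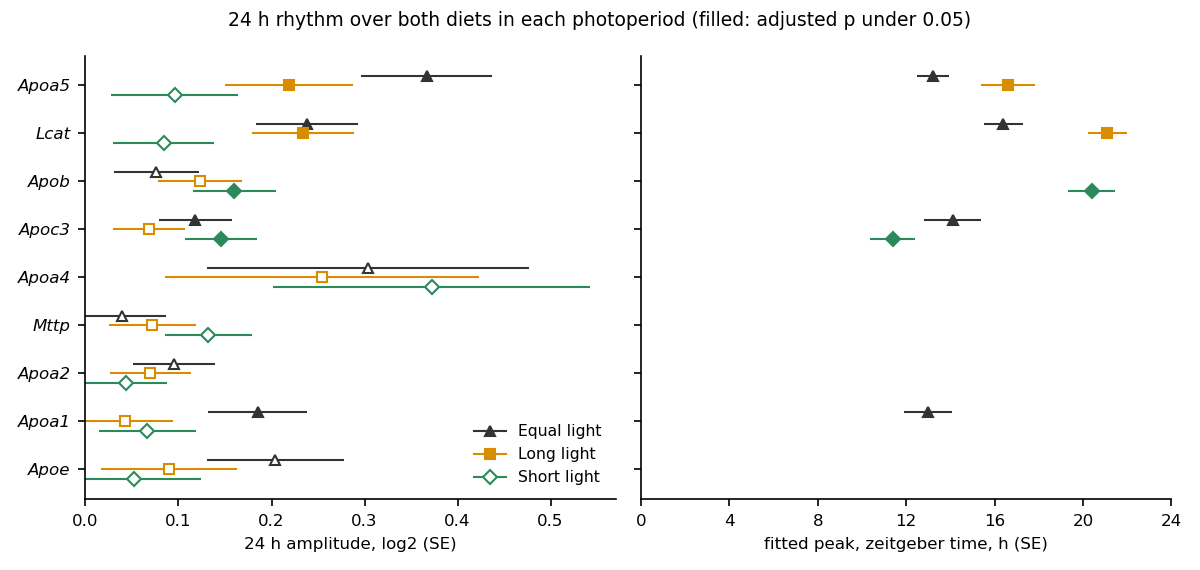
Left, fitted 24 h amplitude in log2 CPM with its SE over both diets in Equal (triangles), Long (squares) and Short light (diamonds), right, the fitted peak in hours of zeitgeber time with its SE for rhythms that passed. Filled symbols passed at an adjusted p under 0.05. The Apoa5 amplitude ran from 0.37 in Equal to 0.10 in Short light, and the Lcat peak from ZT16.4 in Equal to ZT21.1 in Long light. The farthest libraries, both in Equal light, are included.

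How the 9 genes varied together was described over the 36 group means, which share diet, photoperiod, time and libraries. The 36 pairs of genes had a median Pearson r of 0.33, from -0.32 (Apob with Apoc3) to 0.67 (Apoe with Lcat), with 9 pairs above 0.5 and 10 below 0. With arm means removed the median was 0.30. The tested genes most like Apoe were Mettl26 (r = 0.91), Tmbim6 (0.91) and Acads (0.90), and those most like Lcat were Akap1 (0.88), Chchd10 (0.86) and Kifc2 (0.86). Apoc3 was most like Prdx5 (0.87), Gchfr (0.86) and Cyc1 (0.84), Apoa2 most like Sugct (0.86), C8g (0.84) and Cyp2c54 (0.83), and Apoa5 most like Ccs (0.85), Aup1 (0.81) and Syngr2 (0.81). Apoa4 was most like Cntnap1 (0.88), Gpx4 (0.76) and Tspan31 (0.73), and Apoa1 most like Eef2 (0.83), Taok2 (0.82) and C1ra (0.80). Apob was most like Med13 (0.80), Atad2b (0.79) and F830016B08Rik (0.76), and Mttp most like Ugt1a5 (0.80), Gm35986 (0.79) and Pdk1 (0.77). None of the 9 was among the 3 genes most like another.

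The neighbouring genes of the pathway were read from 5 lists in the same fit, where the median log2 difference of all tested genes was -0.0038. Over all tested genes, 12.9% were called higher in HFD, 12.6% lower and 50.5% rhythmic, which is the background for the counts of every list in the main fit. The list counts with libraries left out are given without such a background. Of 7 other apolipoprotein genes tested, 5 were higher and 1 lower in HFD, and the count of higher genes was 3 without the 19 marker-rich libraries, 3 without replicate 2 and 1 without replicate 3. The median log2 difference of the list was 0.07. Apom, which carries sphingosine-1-phosphate on HDL, was lower by 0.36 ± 0.045 (SE) on the log2 scale (adjusted p = 6.95e-10), further from 0 than the estimate of any of the 9 genes above. Apon was higher by 0.175 (adjusted p = 1.47e-06), Apoh by 0.07 (0.0114) and Apoc4 by 0.13 (0.00926). Apoc1 (0.115, adjusted p = 0.0123) and Apof (0.06, 0.0312) were the other higher calls, named after their values were seen. The remaining gene of the list, Apoc2, had an estimate in the other direction that did not pass (-0.13, adjusted p = 0.172). Apon (amplitude 0.08, adjusted p = 0.00103) and Apom (0.10, 0.0186) had a common daily rhythm, and Apoc2 did not pass (0.14, 0.0554).

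Of 23 genes of VLDL assembly and export, 4 were higher and 2 lower in HFD and 11 were rhythmic, and the median log2 difference was -0.0062. Leaving out replicate 1, 2 or 3 gave 2, 2 or 3 higher and 0, 1 or 0 lower. Ces1g, a liver carboxylesterase, was higher by 0.39 ± 0.072 (SE; adjusted p = 1.38e-05), Cideb, which enlarges VLDL particles, by 0.09 (0.00433), and Sec23a and Sec24d, subunits of the COPII coat of vesicles leaving the endoplasmic reticulum, by 0.10 (0.0171) and 0.12 (0.0184). The lower genes, named after their values were seen, were Tm6sf2 (-0.15, adjusted p = 0.0269) and Tmem41b (-0.12, 0.0405), both known to be needed for lipidation of VLDL. The daily rhythms with the lowest p were those of Ces1d, the triacylglycerol hydrolase that mobilises lipid for VLDL (amplitude 0.65, peak ZT16.9, adjusted p = 8.48e-16), Sort1, the sorting receptor sortilin (0.36, ZT3.8, 3.27e-10), and Pla2g12b (0.16, ZT22.2, 5.34e-09).

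Of 14 genes of HDL maturation and plasma lipolysis, 4 were higher and 3 lower in HFD and 10 were rhythmic, with a median log2 difference of 0.04. Without replicate 3, 1 was higher, 2 were lower and 6 were rhythmic, and without replicate 2, 2 were higher. Pon1, an HDL-bound esterase, was higher by 0.27 (adjusted p = 5.54e-06) and Angptl4, an inhibitor of lipoprotein lipase, by 0.41 (0.00673), while Abca1, the lipid exporter that starts HDL, was lower by 0.15 (0.000207) and Pltp, a phospholipid transfer protein, by 0.41 (0.00701). Lipg, which encodes endothelial lipase, and Angptl4 had rhythms with amplitudes of 0.48 and 0.43 and peaks at ZT9.6 and ZT14.6 (adjusted p = 6e-05 and 6.69e-05).

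Of 11 receptors and receptor regulators, 2 were higher and 4 lower in HFD and 7 were rhythmic, with a median log2 difference of -0.02. Without replicate 1, 1 was higher, 2 were lower and 2 were rhythmic, and 3 were rhythmic without replicate 3. Lsr, the lipolysis-stimulated receptor, was lower by 0.32 (adjusted p = 5.37e-06), Lrpap1 by 0.18 (0.000419) and Sorl1 by 0.34 (0.000865), and Sdc1, a heparan sulfate proteoglycan that takes up remnants, was higher by 0.17 (0.00106). Sorl1 had a rhythm with an amplitude of 0.27 and a peak at ZT7.3 (adjusted p = 0.000298).

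Of 17 transcription factors and cofactors known to act on these genes, 2 were higher and 3 lower in HFD and 10 were rhythmic, with a median log2 difference of 0.05. Without replicate 2, 1 was lower. Creb3l3, an activator of Apoa4 and Apoa5, was higher by 0.23 (adjusted p = 9.59e-06) and Ppara, the fatty acid receptor, by 0.26 (0.000129), while Ppargc1a was lower by 0.33 (0.000224) and Rora by 0.18 (0.00786). Hnf4a, a hepatocyte activator of apolipoprotein genes that was named after its value was seen, differed by 0.00 ± 0.036 (SE; adjusted p = 0.991). Nr1d1, the clock repressor REV-ERBα, had an amplitude of 1.52 with a peak at ZT5.7 (adjusted p = 4.05e-14), Nr2f2 of 0.21 with a peak at ZT3.5 and Cebpa of 0.17 with a peak at ZT7.3. The largest amplitude of the 9 genes, 0.27 for Apoa4, was thus below that of Nr1d1 and of Ces1d in the same libraries.

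**Figure D5:**
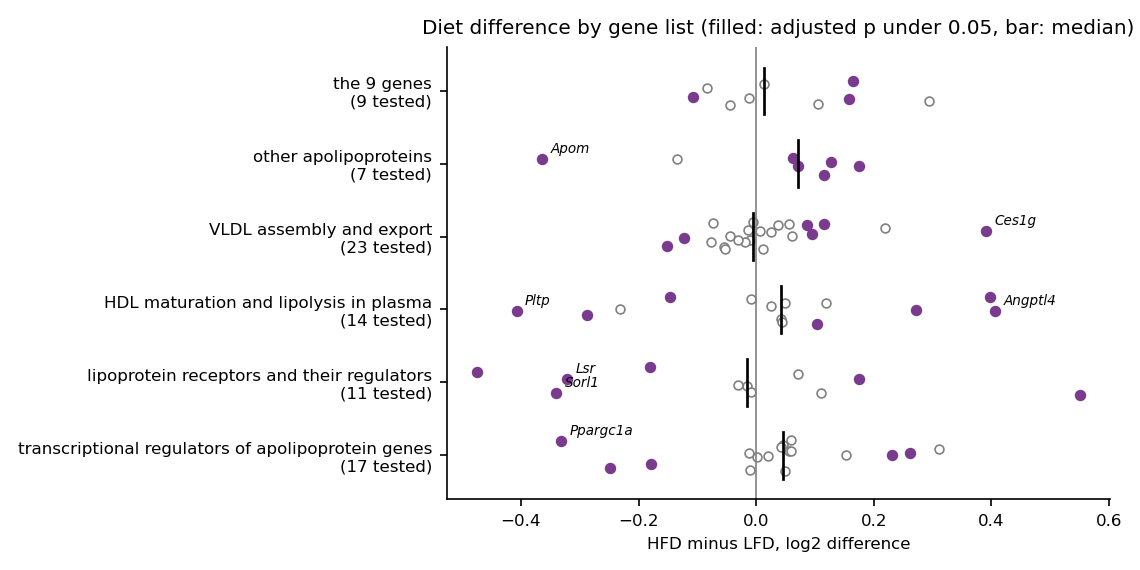
Horizontal axis, fitted HFD minus LFD difference in log2 CPM, 1 point per tested gene, rows for the 9 genes and the 5 lists, filled where the adjusted p was under 0.05, with a bar at each median. The 9 genes lay between -0.11 and 0.29, and list genes named in the text for diet and past 0.3 in either direction carry their symbols.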

How the data were processed

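Poly-A RNA of mouse livers was sequenced from stranded libraries, per the labels' protocols, and STAR, featureCounts, Subread 1.6.2 and the builds mm10 and GRCm38 are named in the submitters' processing notes. The authors deposited log2 CPM values per gene and library, with a floor of -3.6124 that matches a prior of 2 reads. Whole reads were recovered from these values, within a tolerance of 0.05 read for values under 5000 reads, and gave the depths. The library sizes implied by the values did not all equal the totals of recovered reads.

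Because the table holds log2 values and not counts, limma 3.58.1 (R 4.3.3) with a variance trend was the test, on genes that reached 1 CPM in 3 or more libraries. Levels used a mean per group, rhythms a 24 h cosine and sine per arm, with Benjamini-Hochberg adjustment of each p-value across the tested genes and a threshold of 0.05. On simulated data, the fits recovered 78% of diet differences and 70% of common rhythm amplitudes of 0.25 on the log2 scale. Of the simulated calls, 3.65% for diet and 6.12% for rhythm were false. The simulation changed only a small part of the genes, drew noise separately for each gene and gave all arms the same peak time. In the real data 25.5% of genes were called for diet and 50.5% for rhythm, and some libraries deviated over many genes together. The simulated rates may therefore not hold for these data. No smaller size was simulated, although the called diet differences of the 9 genes were smaller, and neither interactions nor photoperiod contrasts were simulated. Of each pathway list, the 4 lowest p-values for diet and the 3 lowest for the common rhythm set which genes were named, and for each of the 9 genes the 3 most correlated over group means with a mean of at least 2 log2 CPM. Some genes that this rule names are not reported here. The 9 genes, the lists and the tests were chosen with earlier results of these data known. Alternatives were no filter, centring on the median gene, limma-voom on recovered reads, the library number as a covariate, no variance trend, times as a factor and each replicate left out. A further 3 were chosen after seeing the data: leaving out the 19 marker-rich libraries, leaving out the 2 farthest, and the length score as a covariate. These 3 are not independent, because the far LFD library is also marker-rich and both far libraries have high length scores. Gene positions and exon lengths came from GENCODE mouse release M21, and promoter sequences from RefSeq GRCm38.p6.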

Additional observations from a re-analysis of the deposited data

Results flagged for a closer look

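In groups of 4 libraries, a value was singled out where its gap to the nearest other, divided by the range of the group, exceeded Dixon's 95% critical value. Of 135 sets of 1 gene in 1 group, 8 did, and chance gives about 5%. The HFD Equal light ZT20 library of replicate 1 accounted for 3 of them, with Apob at 13.36 log2 CPM against 12.56 to 12.68 in the others, Apoc3 at 9.647 against 10.45 to 10.56 and Apoe at 11.77 against 13.56 to 13.87. This was also the library with the highest length score, 0.365.

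The other values were closer to their groups. Apoa2 was at 12.12 in HFD Short light ZT0 replicate 3 against 12.24 to 12.27, and Apoa4 was at 7.704 in HFD Long light ZT0 replicate 2 against 8.329 to 8.396. Apoa5 was at 10.22 in LFD Long light ZT8 replicate 4, above 9.982 to 10.02. Apoc3 was at 10.19 in HFD Short light ZT4 replicate 3 against 10.43 to 10.47, and Apoe was at 13.41 in LFD Short light ZT12 replicate 3 against 13.64 to 13.68.

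The daily rhythm differed between photoperiods in limma for Apoa5 (adjusted p = 0.00664), Lcat (0.00887) and Apoa1 (0.0459), by a test of the difference itself.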

How the results depend on the processing

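No paired analysis was possible because the labels give no replicate numbers, and those used here follow accession order. Of the 9 genes, 3 were called for diet, and leaving out 1 replicate at a time gave 1 to 3, while leaving out the 2 farthest libraries gave 5. Within photoperiods, 0 calls became 2 with centring on the median gene, 1 with limma-voom, 1 with the library number, 1 with no variance trend, 3 with the length score and 2 without the farthest libraries. The 5 common rhythms numbered 3 to 5 with 1 replicate left out. The 6 rhythms in single arms numbered 0 to 6, and 1 with times as a factor. The 3 rhythm differences between photoperiods numbered 1 to 3, and 0 with times as a factor. Estimates near 0 changed sign: the diet difference ran from -0.0941 to 0.0328 for Apoa5, from -0.0428 to 0.00785 for Apob and from -0.0124 to 0.0431 for Apoc3 with 1 replicate left out. Apoc3 was also at -0.00594 without the marker-rich libraries and at -0.00238 with the length score. The causes were not tested. Over all tested genes, 3676 diet calls became 2282 without replicate 1, with fewer libraries in that fit. For the other alternatives the count over all tested genes is not given here. The changed counts of the 9 genes therefore have no background to be read against. Of values for single genes, 501 kept direction and side of the threshold, 45 lost a call, 12 gained one and 6 changed sign. Depth did not limit these abundant genes.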
